A study of Homo sapiens with 6 samples.

Results

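ZNF268 and 6 zinc finger genes beside it, ZNF605, ZNF26, ZNF84, ZNF140, ZNF891 and ZNF10, form a cluster at 12q24.33, close to the end of the long arm of chromosome 12. The 7 genes were selected by symbol among the 60666 genes listed for each library, and the cluster was singled out because ZNF268 was known to be much lower in DNMT3B KO cells than in HCT116 cells in these same libraries. The levels of the 7 genes in both cell lines are therefore given as a description, and no p-value is given for them. The samples were 3 libraries of HCT116, a human colorectal cancer cell line with genotype WT at DNMT3B, and 3 libraries of DNMT3B KO cells, an HCT116 derivative in which DNMT3B is knocked out. Neither cell line received any treatment, and DNMT3B KO is a single derived line. The sources used here do not say whether the 3 libraries of a cell line came from separate cultures, so the errors describe the spread between these libraries, which may be technical.

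Genes of this class encode KRAB zinc finger proteins. An array of C2H2 zinc fingers in such a protein binds DNA, often within transposable elements, and the KRAB domain recruits the corepressor TRIM28 (KAP1), which in turn brings the H3K9 methyltransferase SETDB1, HP1 proteins and histone deacetylases. The genes themselves are arranged in clusters of related copies, and the bodies of many of them carry H3K9me3, a histone mark of heterochromatin, and DNA methylation. DNMT3B is a de novo DNA methyltransferase, and the comparison of DNMT3B KO with HCT116 cells asks how gene expression in heterochromatin differs in cells that lack it. ZNF10, also called KOX1, is the source of the KRAB domain that is widely used in synthetic repressors.

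Libraries were made from mRNA with a stranded kit, and each held between 55436267 and 68274783 estimated counts. Levels are normalised CPM, the estimated counts scaled to library size by the TMM method of edgeR. A library with no count of a gene could still have held up to 3 counts, which is between 0.0416 and 0.0595 CPM depending on the library, and this limit covers counting error only. The labels were checked by DNMT3B itself, on chromosome 20, which was at 38.5, 30.1 and 39.5 CPM in HCT116 replicates 1, 2 and 3 and at 2.54, 2.87 and 2.83 CPM in the DNMT3B KO replicates. Of 12 epithelial and colorectal markers, 8 were tested, of which 5 were called lower in DNMT3B KO and 1 higher. Of all tested genes, 15.1% were called lower and 12.9% higher. EPCAM (302.3 and 284.9 CPM in HCT116 and DNMT3B KO) and CDX2 (22.4 and 20.3 CPM) did not pass. The keratins KRT8 (2178 and 1004 CPM), KRT18 (1234 and 554.7 CPM), KRT19 (876.2 and 344.7 CPM) and KRT20 (1.62 and 0.386 CPM) and the cadherin gene CDH1 (70.8 and 21.8 CPM) fell, and VIL1 rose from 0.0841 to 1.05 CPM. The colorectal markers LGR5, CDH17, CDX1 and CEACAM5 were at or near 0 in both. The 12 markers summed to between 4390 and 5258 CPM in HCT116 and between 2123 and 2310 CPM in DNMT3B KO, while the sums over 7 immune and blood markers were 5.87 to 14.4 and 15.7 to 21.3 CPM, nearly all of them CD68. The 7 fibroblast markers summed to 9.98 to 19.9 CPM and 15.4 to 18.0 CPM in the same order, mostly COL1A1, and the 5 endothelial markers to under 2 CPM in every library. The part of these differences in the levels of the zinc finger genes was not tested.

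ZNF268 was the most abundant of the 7 genes in HCT116 and was almost absent from DNMT3B KO cells. It lies on the forward strand of chromosome 12 from 133181409 to 133214832 (hg38; ENSG00000090612) and is the member nearest to the telomere. Its level was 24.4, 23.7 and 26.0 CPM in HCT116 replicates 1, 2 and 3, a mean of 24.7 ± 1.15 CPM (SD, n = 3), and 0.0971, 0.0335 and 0.0305 CPM in DNMT3B KO replicates 1, 2 and 3, a mean of 0.0537 ± 0.0376 CPM. In rounded counts these were 1619, 1512 and 1309 against 7, 2 and 2. Every HCT116 library thus lay far above every DNMT3B KO library, and DNMT3B KO replicate 1 held most of the few counts that remained. The fitted log2 fold change of DNMT3B KO over HCT116 was -8.75 (standard error, SE, 0.29 from edgeR). Pooled over libraries, 4440 counts in HCT116 stood against 11 in DNMT3B KO, a ratio of 441.3 after scaling with an exact 95% counting interval of 246.4 to 884.7. Without DNMT3B KO replicate 1, the library with most of those counts, the ratio was 770.2 (300.6 to 2828). Both intervals cover counting error only and leave out the spread between libraries. Nothing is read from them, since ZNF268 was chosen for its fall. The values are RNA levels in bulk cultures, in which fewer cells that express ZNF268 and less RNA per cell cannot be told apart.

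ZNF84 and ZNF26 were the other members with appreciable RNA, and both were somewhat higher in DNMT3B KO cells. ZNF84, on the forward strand from 133037292 to 133063304 (ENSG00000198040), was at 11.4, 13.4 and 10.2 CPM in HCT116 replicates 1, 2 and 3 and at 14.1, 17.2 and 15.1 CPM in the DNMT3B KO replicates. The means were 11.7 ± 1.64 and 15.4 ± 1.58 CPM (SD, n = 3), a fitted log2 fold change of 0.40 (SE 0.15), and the lowest DNMT3B KO library lay just above the highest HCT116 library. ZNF26, from 132986365 to 133032952 on the same strand (ENSG00000198393), was at 3.49, 4.07 and 5.18 CPM in HCT116 and at 6.43, 6.54 and 6.16 CPM in DNMT3B KO. Its means were 4.25 ± 0.856 and 6.38 ± 0.199 CPM, a fitted log2 fold change of 0.59 (SE 0.19). The ranges of the cell lines did not overlap for either gene, and HCT116 replicate 3 was at once the lowest library for ZNF84 and the highest HCT116 library for ZNF26.

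ZNF605, ZNF140, ZNF891 and ZNF10 were at or near 0 in both cell lines. ZNF605, on the reverse strand from 132918306 to 132956306 (ENSG00000196458), had 1 count in DNMT3B KO replicate 1 and none in the other libraries. ZNF140, from 133080474 to 133107526 on the forward strand (ENSG00000196387), had 4, 0 and 1 counts in HCT116 replicates 1, 2 and 3 and 1, 0 and 2 counts in the DNMT3B KO replicates. ZNF891 (reverse strand, 133104779 to 133130274, ENSG00000214029) had 1 count, in HCT116 replicate 2. ZNF10 (forward strand, 133130575 to 133159465, ENSG00000256223) had 1 count, in DNMT3B KO replicate 2. The mean of each of the 4 genes was under 3 counts per library in both lines, so no fold is given, and a difference between the lines was not detectable at this depth. Whether these genes are silent in both lines or lost their reads in the authors' counting cannot be told from the deposited counts, and the same holds for other genes listed at 0.

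**Figure D1:**
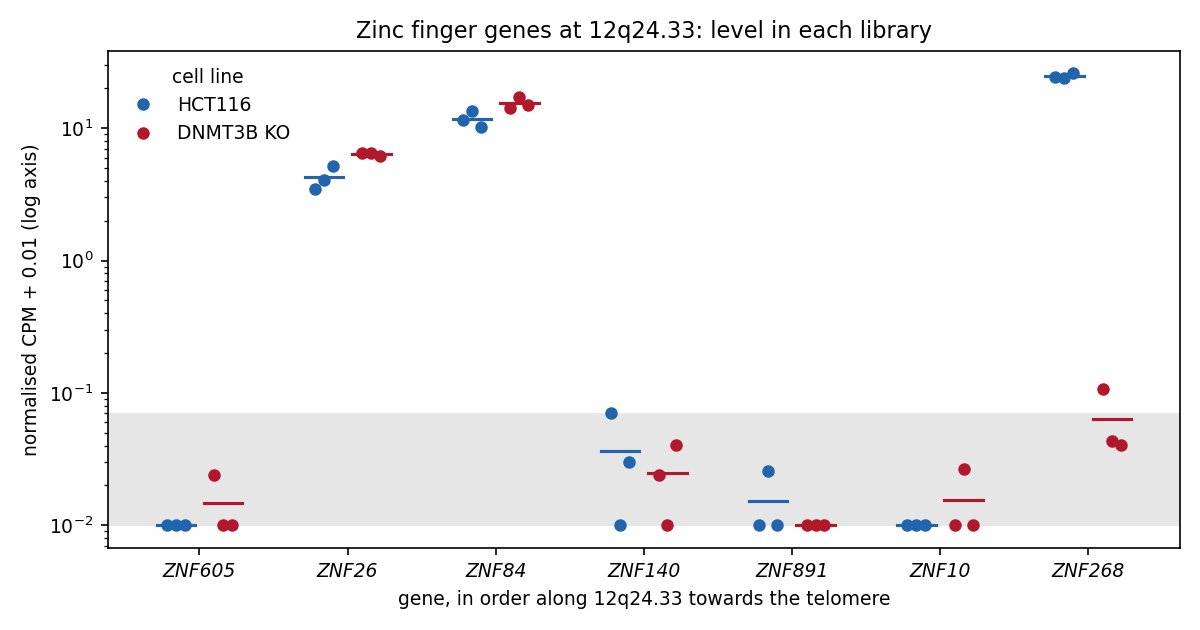
Normalised CPM plus 0.01 on a log axis for the 7 zinc finger genes in their order along the chromosome, where each point is a library (blue for HCT116, red for DNMT3B KO), short lines give the means and a grey band up to 3 counts in the library where they are worth most (0.0595 CPM). ZNF268 stands at 23.7 to 26.0 CPM in HCT116 and at 0.0305 to 0.0971 CPM in DNMT3B KO, while ZNF26 and ZNF84 are a little higher in DNMT3B KO and the other 4 genes lie near the bottom of the plot in both lines.

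The edgeR fit tested 3 of the 7 members, since its filter on low counts removed the 4 genes at or near 0. At an adjusted p under 0.05 it called ZNF268 lower and ZNF26 higher, and ZNF84 did not pass. Among all genes, 28.1% of the 16959 tested genes were called, 12.9% higher and 15.1% lower in DNMT3B KO. ZNF26 lay on the threshold itself and lost its call under 8 of 12 alternative settings. The 3 tested members had a median log2 fold change of 0.40, against -0.00 over all tested genes. The groups did not overlap for any of the 3, as for 45.9% of all tested genes. Nothing is read from these counts, because the same contrast chose the cluster.

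With ZNF268 near 0 in DNMT3B KO, the RNA of the cluster differed between the lines in amount and in make-up. The 7 genes together summed to 40.6 ± 1.11 CPM in HCT116, against 21.9 ± 1.65 CPM in DNMT3B KO (SD, n = 3). ZNF268 gave between 57.6% and 62.8% of the cluster's counts in the HCT116 libraries and between 0.141% and 0.470% in the DNMT3B KO libraries. ZNF84 went from 28.7 ± 3.98% of the counts to 70.4 ± 2.04%. In HCT116 the order by CPM was ZNF268, ZNF84 and ZNF26 in each library, and in DNMT3B KO it was ZNF84, ZNF26 and then ZNF268.

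**Figure D2:**
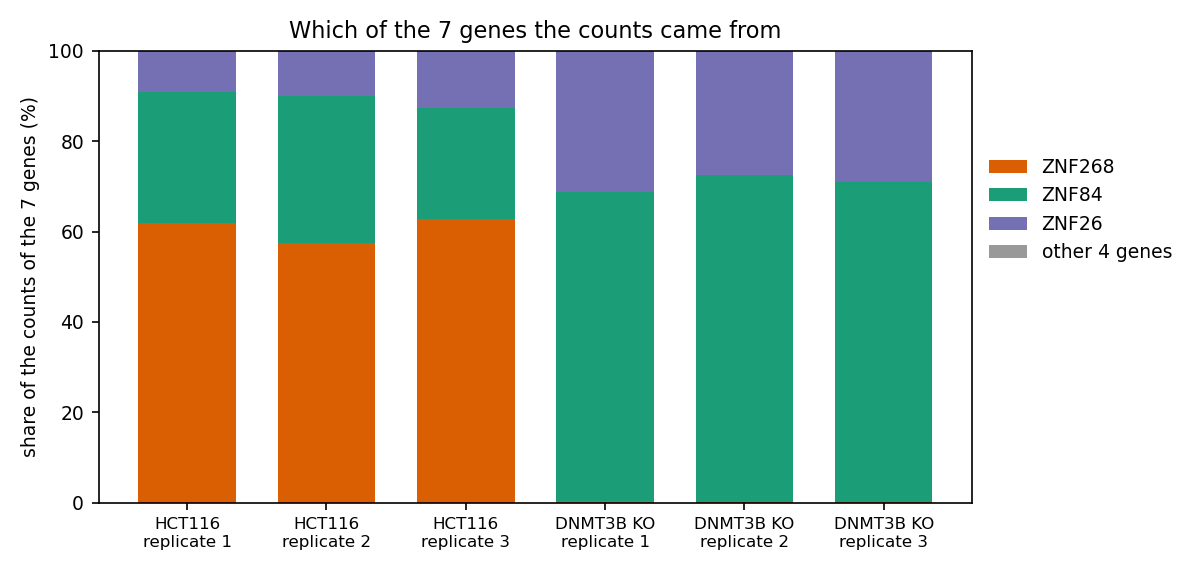
Share, in percent, of the counts of the 7 genes that came from each gene, each library (3 HCT116, 3 DNMT3B KO) drawn as a bar and the 4 genes at or near 0 shown together. ZNF268 holds 57.6% to 62.8% of each HCT116 bar and at most 0.470% of a DNMT3B KO bar, where ZNF84 and ZNF26 fill nearly all.

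Longer transcripts yield more counts, so levels of different genes were also compared per kilobase of transcript. Per kilobase of the Ensembl canonical transcript, which is 13390 bases for ZNF268, 6811 for ZNF84 and 17697 for ZNF26, the HCT116 levels were 1.84 ± 0.0856, 1.71 ± 0.241 and 0.240 ± 0.0484 CPM per kilobase (SD, n = 3). The libraries of ZNF268 (1.77 to 1.94) and ZNF84 (1.49 to 1.97) overlapped on this scale, and ZNF26 lay below both. Per kilobase of all annotated exons joined, ZNF268 (1.68 to 1.84) lay above ZNF84 (1.07 to 1.41) in HCT116, so whether the libraries of this pair overlap depends on the transcript length that is assumed. In DNMT3B KO, ZNF84 was at 2.27 ± 0.231, ZNF26 at 0.360 ± 0.0113 and ZNF268 at 0.00401 ± 0.00281 CPM per kilobase of canonical transcript. The libraries of these 3 genes did not overlap there.

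The canonical transcripts of these genes have sequences that are mostly their own, and the reads behind the counts were not examined. Of all 50-base stretches in the canonical transcript, 93.7% were found in no transcript of another gene for ZNF268, 99.7% for ZNF84 and 97.4% for ZNF26. For ZNF140 and ZNF891 the values were 100% and 98.6%, for ZNF605 95.8% and for ZNF10 89.6%. ZNF268 and ZNF10 shared most of the remainder with AC026786.1, a gene model on the same strand that spans from ZNF10 into ZNF268, and without it 98.5% and 100% were unique. AC026786.1 was listed at 0 in all 6 libraries, so the near absence of ZNF268 in DNMT3B KO was not accompanied by counts assigned to that model. In release 44 of GENCODE, CHFR overlaps ZNF605 by 37999 bases on the same strand, measured from gene start to gene end and not along the transcripts. Of the 9293 50-base stretches of the ZNF605 canonical transcript, 141 were found in CHFR. Counts in the shared stretches are uncertain, and both genes were at or near 0. ZNF140 and ZNF891 overlap by 2748 bases on opposite strands.

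The promoters of the members differ in sequence. In the RefSeq windows, which run from 250 bases before to 50 bases after an annotated start (GRCh38.p14), all 7 genes were found, with a pair of windows for ZNF84. The windows are shown for ZNF268, which was near 0 in DNMT3B KO only, for ZNF26 and ZNF84, which were expressed in both cell lines, and for ZNF140, which was at or near 0 in both. Capitals mark matches, on either strand, to the letters GGGANNTGTAGTT, in which N is any base. This run was taken from the ZNF268 window after the windows had been read, and it resembles the recognition sequence of the transcription factor ZNF143.
ZNF268 (chr12:133181245-133181544, forward strand): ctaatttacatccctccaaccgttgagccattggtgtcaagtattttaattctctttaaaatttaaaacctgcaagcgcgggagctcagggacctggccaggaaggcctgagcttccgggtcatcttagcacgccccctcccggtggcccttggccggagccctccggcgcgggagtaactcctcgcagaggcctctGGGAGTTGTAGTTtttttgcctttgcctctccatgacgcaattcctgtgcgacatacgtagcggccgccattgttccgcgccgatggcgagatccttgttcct
ZNF26 (chr12:132986117-132986416, forward strand): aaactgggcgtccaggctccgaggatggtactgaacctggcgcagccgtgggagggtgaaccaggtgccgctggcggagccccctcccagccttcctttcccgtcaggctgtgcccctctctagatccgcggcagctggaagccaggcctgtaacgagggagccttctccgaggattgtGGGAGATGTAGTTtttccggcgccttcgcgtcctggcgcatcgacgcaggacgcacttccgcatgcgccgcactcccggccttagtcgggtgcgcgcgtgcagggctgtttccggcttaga
ZNF84 (chr12:133037259-133037558, forward strand): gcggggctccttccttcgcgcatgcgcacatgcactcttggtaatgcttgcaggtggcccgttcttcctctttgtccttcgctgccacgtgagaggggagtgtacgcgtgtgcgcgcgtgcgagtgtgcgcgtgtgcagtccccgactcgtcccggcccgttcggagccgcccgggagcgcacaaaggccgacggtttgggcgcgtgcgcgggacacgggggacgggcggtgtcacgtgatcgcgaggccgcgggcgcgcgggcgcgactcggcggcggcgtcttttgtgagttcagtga
ZNF140 (chr12:133080673-133080972, forward strand): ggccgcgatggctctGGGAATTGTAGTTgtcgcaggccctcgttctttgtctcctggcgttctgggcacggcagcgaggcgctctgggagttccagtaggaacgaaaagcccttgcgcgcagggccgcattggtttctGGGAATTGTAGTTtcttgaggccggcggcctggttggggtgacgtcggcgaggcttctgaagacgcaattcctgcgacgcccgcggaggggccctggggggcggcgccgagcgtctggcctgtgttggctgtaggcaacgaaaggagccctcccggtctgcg

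The windows of ZNF268, ZNF26, ZNF605 and ZNF140 held these letters, 6 times in all, once each in ZNF268 and ZNF26 and 2 times each in ZNF605 and ZNF140, always on the strand of the gene. Among all 35116 promoter windows 0.851% held a match, and among the 548 windows of ZNF genes outside the cluster 5.11% did. The match in ZNF268 was fixed by the choice of the letters, which was made with all member windows known. Nothing is therefore read from the number of members with a match beside these shares. The match in ZNF268 began 53 bases before the RefSeq start of its window, and that in ZNF26 71 bases before its own. RefSeq starts differ from the GENCODE gene starts given above. By the latter, the matches in ZNF268 and ZNF140 lie inside the genes. Genes with a match included ZNF268, a member expressed in both lines and a pair of members at or near 0 in both. Whether the letters bear on the level of a gene was not tested. ZNF84, the member with the most counts in DNMT3B KO, held none, and neither did ZNF891 and ZNF10, which were at or near 0 in both lines.

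The number of CpG dinucleotides, the sites at which DNA methyltransferases act, also differed between the windows. ZNF268 had 20 CpGs in its window, the fewest of the 7 genes, and ZNF605, ZNF26 and ZNF140 had 24, 28 and 29. ZNF891, ZNF10 and ZNF84 had 42, 46 and 46 (51 in the other window of ZNF84). The median was 14 over all windows and 21 over those of other ZNF genes. Windows with many and with fewer CpGs both included genes at or near 0, and DNA methylation was not measured in these libraries. The windows of ZNF891 and ZNF10, which start on opposite strands, share 148 bases. The GC box GGGCGG, searched on both strands like the runs that follow, occurred 3 times each in ZNF891 and ZNF10, 2 times in either window of ZNF84 and once in ZNF140 (45.0% of all windows held it). CCAAT occurred once each in ZNF605, ZNF140, ZNF10 and ZNF268 (34.6% of all windows), CACGTG only in ZNF84 (7.26%) and TGACGTCA only in ZNF10 (1.85%). TATAAA (11.5% of all windows) occurred in none of the 7 genes.

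No other gene inside the cluster had any count. The annotation places 9 more genes between the start of ZNF605 and the end of ZNF268, among them ZNF84-DT, which is divergent to ZNF84, the long non-coding RNA AC026786.2 and the model AC026786.1. Each of them was listed at 0 in all 6 libraries. Along the cluster, ZNF605 at the centromeric end was at or near 0, ZNF26 and ZNF84 lay expressed side by side, and ZNF140, ZNF891 and ZNF10, at or near 0, separated them from ZNF268.

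The tested flanking genes, which the choice of the cluster did not use, had no change as large as that of ZNF268. All of them lie on the centromeric side of the cluster, so the telomeric side, beyond ZNF268, was not compared. Of 16 flanking protein-coding genes, 12 were tested, of which 1 rose, 3 fell and 8 did not pass, with a median log2 fold change of -0.07. The share called was 33.3%, against 28.1% of all tested genes. The nearest neighbours had no counts to compare. CHFR, a mitotic checkpoint ubiquitin ligase gene beside ZNF605, and ANHX, a homeobox gene beyond ZNF268, were listed at 0 in all 6 libraries, as were LRCOL1 and the ATP receptor gene P2RX2.

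PXMP2, which encodes a peroxisomal membrane protein, was the flanking gene that rose. It was at 19.8, 15.7 and 22.8 CPM in HCT116 replicates 1, 2 and 3 and at 32.2, 33.6 and 33.0 CPM in DNMT3B KO (log2 fold change 0.76, SE 0.14, edgeR adjusted p = 0.0051), with no overlap between the lines. The other 4 expressed genes between POLE and GOLGA3 had log2 fold changes of 0.27 for POLE, the catalytic subunit of DNA polymerase epsilon, 0.32 for the mitochondrial phosphatase gene PGAM5, 0.29 for ANKLE2 and 0.29 for GOLGA3, and none of them passed. Without HCT116 replicate 3, PGAM5, ANKLE2 and GOLGA3 passed too, so that 4 of the 12 tested genes were called higher.

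The 7 tested flanking protein-coding genes farther from the cluster had fitted changes below 0. This division falls where the fitted sign changes, and 8 of the 12 tested flanking genes did not pass. No trend with distance is read from it. EP400, a chromatin remodelling ATPase gene, fell from 118.6, 116.6 and 127.6 CPM in HCT116 to 90.3, 78.3 and 81.9 CPM in DNMT3B KO (log2 fold change -0.53, SE 0.09, edgeR adjusted p = 0.0034). ULK1, an autophagy kinase gene, fell by 0.41 on the log2 scale (SE 0.12, edgeR adjusted p = 0.037), a call that 4 of 12 alternatives lost, among them those without HCT116 replicate 1 (adjusted p = 0.13) and without DNMT3B KO replicates 2 and 3 (0.14 and 0.13). GALNT9, a glycosyltransferase gene, had 1.31, 3.49 and 0.595 CPM in the HCT116 replicates and 0.236, 0.218 and 0.229 CPM in those of DNMT3B KO (log2 fold change -2.97, SE 0.63, edgeR adjusted p = 0.0099). The HCT116 libraries of GALNT9 were widely spread, with a log2 fold change of -2.08 without HCT116 replicate 2, and the call was lost without DNMT3B KO replicate 2 (adjusted p = 0.0502). Without that library EP400 was the flanking gene still called lower, 1 in place of 3. PUS1, NOC4L, FBRSL1 and DDX51 did not pass, with log2 fold changes of -0.25, -0.24, -0.11 and -0.03, and that of DDX51 was 0.05 under upper quartile scaling.

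**Figure D3:**
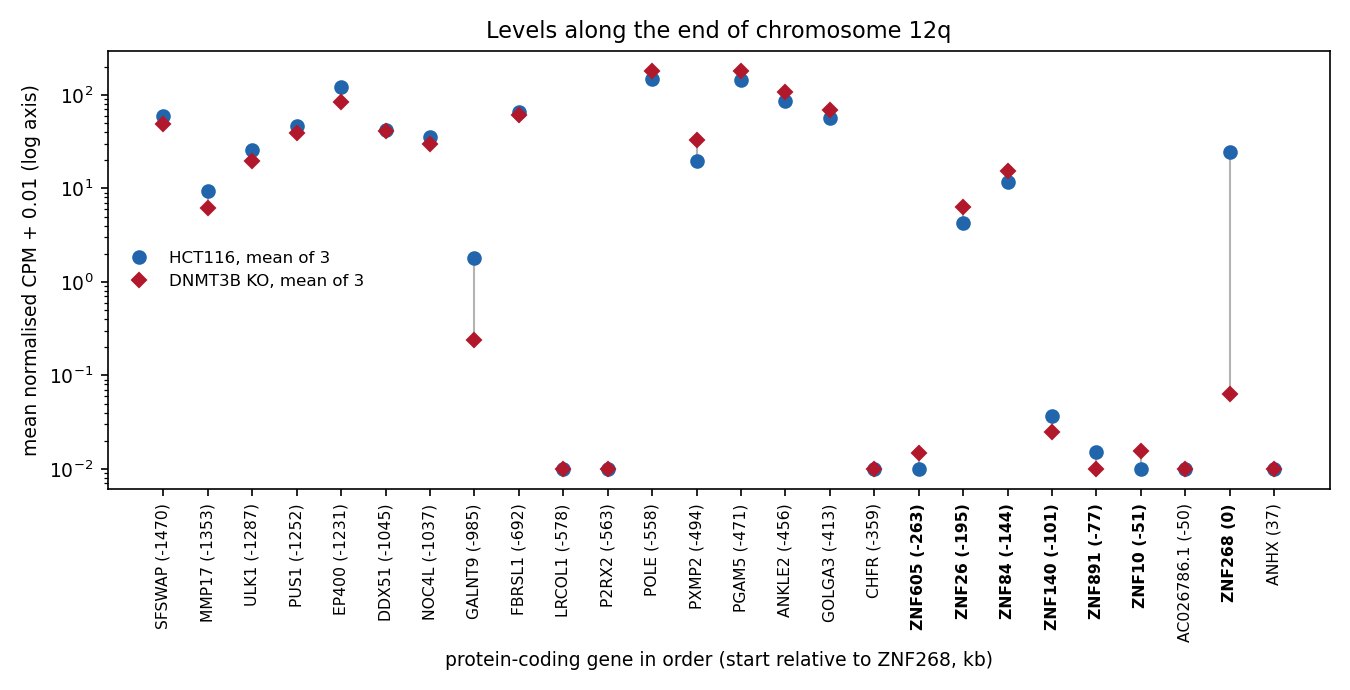
Mean normalised CPM plus 0.01 on a log axis for each protein-coding gene that starts within 1.5 Mb of ZNF268 or beyond it, in chromosomal order, with the distance of its start from that of ZNF268 in kb in parentheses (HCT116 blue circles, DNMT3B KO red diamonds, members in bold). The longest line joins the means of ZNF268, 24.7 and 0.0537 CPM, and the run from CHFR to ANHX holds only 3 genes with appreciable RNA.

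Over this whole stretch, the 22 tested genes within 1.5 Mb that are not members included 2 that rose and 3 that fell, and their median log2 fold change was 0.01. Among all tested genes 12.9% were called higher and 15.1% lower. Beside PXMP2, the gene that rose was AC131212.3, a gene model that starts within FBRSL1 on the same strand, so that its counts are uncertain, with means of 0.436 ± 0.145 CPM in HCT116, against 1.57 ± 0.537 CPM in DNMT3B KO (SD, n = 3, log2 fold change 1.84, SE 0.39, edgeR adjusted p = 0.0099). The other non-coding genes and pseudogenes tested on this stretch did not pass, and their fitted changes lay on both sides of 0. The 905 tested genes of chromosome 12 outside the cluster had a median of -0.03, with 125 higher and 155 lower.

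Among ZNF genes as a class, ZNF268 was neither the highest in HCT116 nor alone in its loss. Of 397 tested ZNF genes, members included, it ranked 89 by CPM in HCT116 and 17 by the size of the fitted decrease, and 63 of all tested genes had a larger fitted decrease. The 394 tested ZNF genes outside the cluster included 81 that rose (20.6%) and 74 that fell (18.8%), against 12.9% and 15.1% of all tested genes. Their median log2 fold change was 0.13. Of the 198 of these at or above 10 CPM in HCT116, 8 were under 0.1 CPM in DNMT3B KO and 184 were within 2-fold. Under 0.1 CPM in both lines were 4 of the 7 members (57.1%), 115 of 501 other protein-coding ZNF genes (23.0%) and 28.5% of all protein-coding genes. Of all tested genes, 0.761% had 1 CPM or more in HCT116 and less than 0.1 CPM in DNMT3B KO, as ZNF268 had. Of the 363 other protein-coding ZNF genes at 1 CPM or more in HCT116, 34 (9.37%) were under 0.1 CPM in DNMT3B KO. The same share was 0.95% for the 12108 protein-coding genes at 1 CPM or more in HCT116. Whether the cluster differs from other ZNF genes in these shares was not tested, since 7 neighbouring genes are few and were chosen with their values known.

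**Figure D4:**
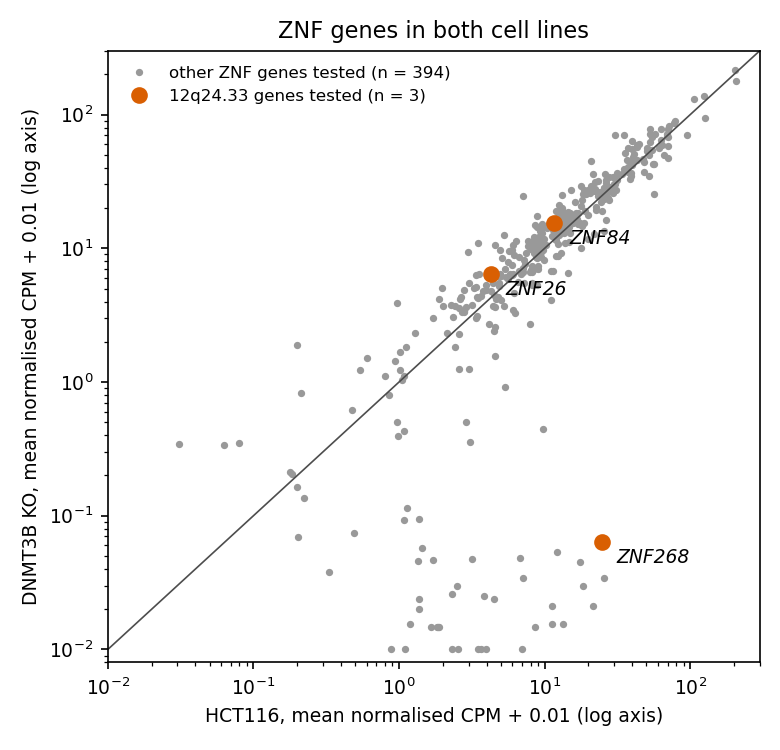
Mean normalised CPM plus 0.01 in DNMT3B KO against HCT116, both on log axes, for the 394 tested ZNF genes outside the cluster (grey) and the 3 tested members (orange), with a line at equal levels. ZNF26 and ZNF84 lie near the line, and ZNF268 lies with the group of ZNF genes far below it, at 24.7 and 0.0537 CPM.

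The genes with levels most like those of ZNF268 over the 6 libraries were found by the Euclidean distance of log2(CPM + 0.5) among all tested genes. The closest was ZNF28, a zinc finger gene of chromosome 19, at a distance of 0.218, with HCT116 libraries at 23.9, 23.3 and 29.1 CPM and 4, 1 and 0 counts in those of DNMT3B KO. It was followed by PXDN, an extracellular matrix peroxidase gene (0.357), ZNF468 (0.435), the F-box gene FBXO25 (0.490) and PROM1, which encodes the membrane glycoprotein CD133 (0.582). Their HCT116 means lay between 21.6 and 25.5 CPM and their DNMT3B KO means between 0.0112 and 0.125 CPM. ZNF28 and ZNF468 overlap by 19591 bases on the same strand, measured from gene start to gene end. Counts in any transcript sequence they share are uncertain, and how much they share was not examined. The distance was computed from the libraries that chose ZNF268 and carries no test.

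The cofactors through which KRAB zinc finger proteins act were expressed in both cell lines. Of 28 listed genes of KRAB cofactors, H3K9 methyltransferases and heterochromatin proteins, all were tested, of which 6 rose, 4 fell and 18 did not pass, with a median log2 fold change of 0.11. The share called was 35.7%, against 28.1% of all tested genes. TRIM28 itself was at 889.9, 742.5 and 1125 CPM in HCT116 and at 805.9, 903.0 and 857.7 CPM in DNMT3B KO. Its libraries overlapped, and it did not pass (log2 fold change -0.10, SE 0.15, edgeR adjusted p = 0.66), with a value of 0.07 without HCT116 replicate 3. SETDB1, the H3K9 methyltransferase that TRIM28 recruits, was at 61.2, 59.4 and 55.3 CPM in HCT116 and at 47.7, 46.8 and 47.7 CPM in DNMT3B KO (log2 fold change -0.31, SE 0.08, edgeR adjusted p = 0.024). Of 12 alternatives 7 lost this call, and without HCT116 replicate 1 or DNMT3B KO replicates 1, 2 and 3 the adjusted p was 0.11, 0.085, 0.093 and 0.082.

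Of the called genes in this list, HDAC1, SETDB2, MTA1 and TRIM24 had the largest fitted changes. HDAC1, a histone deacetylase, fell from 304.8, 309.8 and 301.7 CPM in HCT116 to 164.8, 166.0 and 162.5 CPM in DNMT3B KO (log2 fold change -0.89, SE 0.08, edgeR adjusted p = 0.00012). MTA1, a subunit of the NuRD deacetylase complex, fell from 114.6, 117.4 and 107.6 to 74.5, 62.0 and 62.1 CPM (-0.77, SE 0.10, edgeR adjusted p = 0.00095). RBBP4, a histone chaperone of the same complex, rose from 305.1, 295.6 and 296.5 to 420.7, 412.8 and 453.5 CPM (0.52, SE 0.08, edgeR adjusted p = 0.0030). The lines did not overlap for any of these 3 genes, as for 45.9% of all tested genes. TRIM24, a relative of TRIM28, rose from a mean of 33.6 CPM to 53.9 CPM, again with no overlap (0.68, SE 0.09, edgeR adjusted p = 0.0013). The HP1 genes CBX1, CBX3 and CBX5 did not pass, with log2 fold changes of 0.30, -0.09 and 0.51. ZNF274, a zinc finger protein known to bind within zinc finger genes and to recruit SETDB1 there, rose as well (log2 fold change 0.58, SE 0.12, edgeR adjusted p = 0.010). CHD3 and MTA2 of NuRD and the remodeller gene ATRX were the other genes that rose, and SETDB2 was the other that fell (-0.78, SE 0.15, edgeR adjusted p = 0.0062). Without DNMT3B KO replicate 1, 3 genes of the list rose instead of 6.

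**Figure D5:**
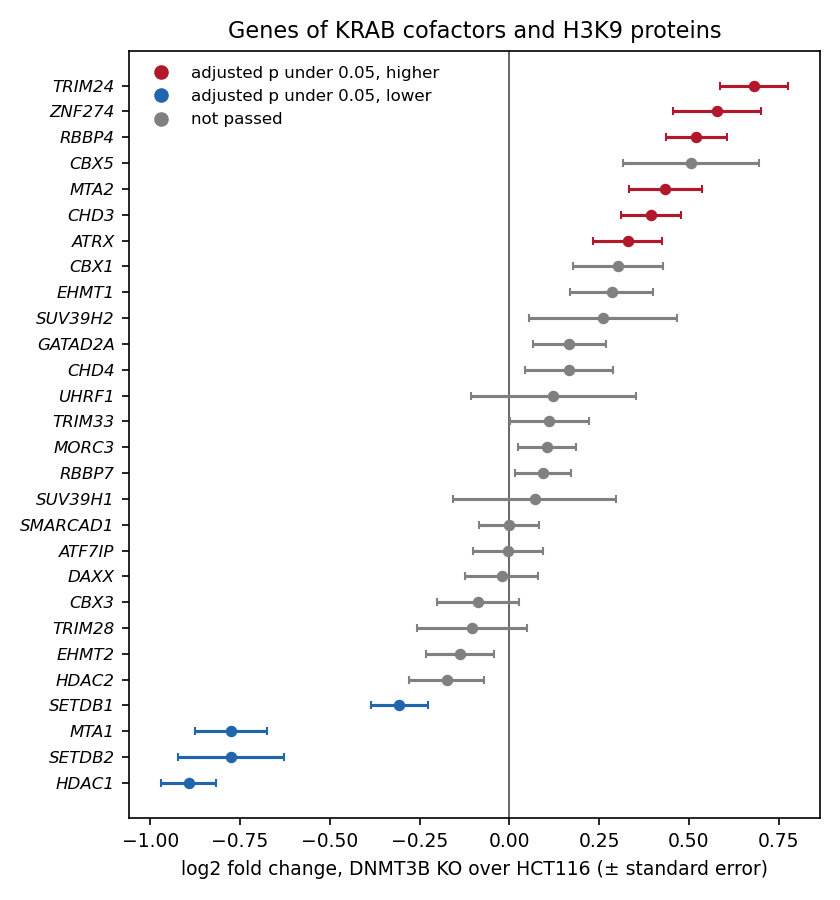
Log2 fold change of DNMT3B KO over HCT116 with its standard error for the 28 listed cofactor and H3K9 genes, ordered by size, in red or blue where the edgeR adjusted p was under 0.05 and in grey otherwise. The values run from -0.89 for HDAC1 to 0.68 for TRIM24, with TRIM28 at -0.10 among the genes that did not pass.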

How the data were processed

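RNA of 3 HCT116 and 3 DNMT3B KO libraries was measured. The authors ran nf-core/rnaseq, with alignment by STAR (hg38) and quantification by Salmon in Ensembl release 103, and the deposited values are estimated counts per gene that carry a correction for transcript length. They were rounded, filtered with filterByExpr, scaled by TMM and compared between genotypes by edgeR 4.0.16 (quasi-likelihood F test, R 4.3.3), with Benjamini-Hochberg adjustment over 16959 genes. A standard error is the log2 fold change divided by the square root of F. The alternatives were DESeq2 1.42.0, limma 3.58.1 (voom), other scalings, no filter on low counts, the replicate number as a block and each library left out. The fit was tested on simulated counts. Positions and lengths come from GENCODE release 44 (hg38), to which 60437 gene IDs matched, and promoter windows from RefSeq.

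The members, gene lists and tests were chosen with earlier results of these data known. Named were all members, DNMT3B, the tested flanking genes, TRIM28, SETDB1, the 4 called cofactors of smallest adjusted p and the 5 genes nearest to ZNF268. Other genes named from a list were chosen after their values were seen. No pair of libraries held identical values, and within a line log2 CPM correlated at 0.984 or more across genes, which are not independent replicates. The tests on counts cover the spread between libraries only.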

Additional observations from a re-analysis of the deposited data

How the results depend on the processing

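PXMP2, EP400, HDAC1, MTA1, RBBP4 and TRIM24 kept their direction and their call under all 12 alternatives. The log2 fold change of ZNF268 lay between -9.51 and -8.47, from which nothing is read, since ZNF268 was chosen for its fall in these libraries. The number of members called higher was 2 with DESeq2, which also called ZNF84, and 0 in 3 further fits (RLE scaling, unfiltered counts, the replicate block). With a library left out it was 0 to 1, since ZNF26 lost its call without HCT116 replicate 1 or 2 or any DNMT3B KO replicate, and without HCT116 replicate 2 ZNF84 passed instead. These calls of members are a description too, and nothing is read from them, because the same contrast chose the cluster. The number of flanking genes called higher was 2 under upper quartile scaling, which added ANKLE2 and moved the median of all genes to 0.08, and 1 to 4 with a library left out. The number called lower was 1 to 4, with 1 without DNMT3B KO replicate 2. Leaving out a library gave 3 to 9 cofactors, 40 to 95 ZNF genes outside the cluster and 1283 to 2868 genes in all called higher. 

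DDX51 changed sign under upper quartile scaling (0.05) and without HCT116 replicate 1 (0.01), HCT116 replicate 3 (0.02) or DNMT3B KO replicate 3 (0.0622), and ranged from -0.13 to 0.0622 with a library left out. TRIM28 ranged from -0.25 to 0.0708, above 0 without HCT116 replicate 3. Deviations of same-numbered libraries from their group means correlated at 0.14, -0.03 and 0.20, so the numbers were not taken as pairs, and not every library correlated best with its own number. Under the replicate block, the log2 fold changes of ZNF268 and ZNF26 were -8.76 and 0.61, and SETDB1 lost its call (adjusted p = 0.054 from edgeR). The cause of these shifts was not tested. Depth limits the genes at or near 0, for which levels under 3 counts per library cannot be told apart.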
